A study of Mus musculus with 7 samples.

Results

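The 40 interferon response genes described here are genes that cells switch on when an interferon reaches them. They were chosen by symbol and make up 40 of the 27998 genes in the count matrices. All 40 symbols were found. They were read as 7 type I genes (Ifit1, Ifit2, Ifit3, Oas1a, Oasl1, Oasl2 and Mx1), 9 interferon-gamma GTPases (Gbp2, Gbp3, Gbp7, Igtp, Iigp1, Irgm1, Irgm2, Tgtp1 and Tgtp2), 4 transcription factors (Irf1, Irf7, Irf9 and Stat2) and 20 other members (Isg15, Usp18, Isg20, Ifi27l2a, Ifi44, Ifi47, Ifi35, Ifih1, Ifitm3, Bst2, Rsad2, Cmpk2, Zbp1, Rtp4, Xaf1, Parp14, Trim30a, Samd9l, Ifi203 and Ifi204). Over all kept cells their totals ran from 2275 UMIs for Tgtp1 to 664295 UMIs for Ifitm3. The cells are the stromal vascular fraction of inguinal subcutaneous fat, that is, the cells left once the floating fat cells are removed from the digested tissue. All donors were female C57BL/6N mice with no stated treatment or genetic change. The young group was 11 to 12 weeks old and has 4 libraries, and the old group was 18 months old and has 3 libraries. The labels call the libraries replicates and do not say whether 1 library holds cells of 1 mouse or of a pool. The p-values therefore set an age effect against the spread between libraries. Where classes are compared, they set it against the spread of the class difference between libraries.

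Interferons are secreted alarm proteins. Type I interferons signal through the Ifnar1 and Ifnar2 receptor to a complex that holds Stat2 and Irf9 and binds the interferon-stimulated response element (ISRE) of genes such as the Ifit and Oas genes. Interferon gamma, made mainly by T and natural killer (NK) cells, signals through Ifngr1 and Ifngr2 to factors that bind the gamma-activated site (GAS), and it is the classical inducer of Irf1 and of the Gbp and Irg GTPases that attack vacuoles holding microbes. The programs overlap, so a gene named here as type I or gamma is one for which that interferon is the better known inducer. In fat tissue these genes have been studied mostly in macrophages and in endothelial cells.

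Each library held between 52336665 and 99516882 unique molecular identifiers (UMIs, each standing for 1 captured transcript). The 37293 cells that passed the filters had a median of 9240 to 13783.5 UMIs in the young and 5988 to 7955 UMIs in the old libraries. These medians mix classes: in progenitors young and old medians did not overlap (13658 to 25864 and 9009 to 13133 UMIs), while in B cells they did (4223 to 5865.5 and 4118 to 5294 UMIs). Pairs of libraries shared 4 to 23 cell barcodes. Cells were clustered without the members and related interferon genes (125 genes in all), and clusters were named from marker genes, so each class name below stands for cells like that type. The cells carried their defining markers: the 10 endothelial markers summed to between 8617 and 10356 CPM in the endothelial class (counts scaled to the total of the class in its library), and the 11 macrophage markers to between 12758 and 17964 CPM in the macrophage class. Classes come from expression in the same cells, so levels are described across classes and tested only between ages. Levels are given for 15 classes. The adipocyte-like, erythroid-like, cycling and unnamed clusters are not among these classes and were not ranked with them.

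The promoters of the members carry the letters of both response elements more often than promoters at large. A promoter window, from 250 bases before to 50 bases after the start of the gene, was at hand from RefSeq (GRCm38.p6) for 32 members, all but Ifi27l2a, Usp18, Iigp1, Zbp1, Rtp4, Mx1, Parp14 and Ifi204. The ISRE was searched on both strands as the letters GAAA, any 2 bases and GAAA again, and the GAS as TTCNNNGAA, which reads the same on both strands. ISRE letters were found in 19 of these 32 windows (59.4%) against 3.99% of 27025 gene promoters. GAS letters were found in 12 (37.5%) against 9.55%. Both stood in 8 windows (25%) against 0.614% of all promoters. Among type I genes 3 of 6 windows held an ISRE and 2 held a GAS. Stretches of 3 promoters with ISRE letters and no GAS letters in the window are shown. Ifit1 and Ifit3, of the type I list, and Isg15, of the other members, recur in the results below. ISRE letters are in capitals, and overlapping matches run together. The stretches are written 5′ to 3′ on the strand of the gene, and matches in the reverse orientation start with TTTC.
Ifit1 (chr19:34640765-34640833, plus strand): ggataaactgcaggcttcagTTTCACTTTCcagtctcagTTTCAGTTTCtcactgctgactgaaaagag
Ifit3 (chr19:34583353-34583436, plus strand): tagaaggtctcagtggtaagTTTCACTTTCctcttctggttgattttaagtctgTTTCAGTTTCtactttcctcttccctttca
Isg15 (chr4:156200855-156200916, minus strand): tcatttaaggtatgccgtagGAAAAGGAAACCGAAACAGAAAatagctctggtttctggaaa
The Ifit1 stretch ends 56 bases before the start of the gene, and both it and the Ifit3 stretch hold 2 separate matches. The Isg15 stretch holds 3 matches that overlap in 1 run.

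All 8 GTPases with a window held ISRE letters, and 5 of these 8 held GAS letters as well. In 4 of them, Igtp, Irgm2, Tgtp1 and Tgtp2, a GAS stands directly upstream of an ISRE with 2 bases between them. They are shown because the same pair of elements recurs in them, with GAS and ISRE in capitals. Gbp7 is shown as a GTPase of another family, with 2 GAS matches and 1 ISRE match farther apart.
Igtp (chr11:58199491-58199551, plus strand): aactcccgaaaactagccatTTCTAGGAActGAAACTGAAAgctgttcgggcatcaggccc
Irgm2 (chr11:58214882-58214942, plus strand): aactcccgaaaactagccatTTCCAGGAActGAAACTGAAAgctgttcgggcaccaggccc
Tgtp1 (chr11:48992294-48992354, minus strand): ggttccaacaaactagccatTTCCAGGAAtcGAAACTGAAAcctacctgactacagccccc
Tgtp2 (chr11:49064253-49064313, minus strand): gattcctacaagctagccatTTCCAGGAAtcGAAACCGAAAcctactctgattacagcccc
Gbp7 (chr3:142530210-142530312, plus strand): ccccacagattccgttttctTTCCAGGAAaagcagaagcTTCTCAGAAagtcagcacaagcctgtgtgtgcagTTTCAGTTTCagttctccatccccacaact
Igtp and Irgm2 are neighbours on chromosome 11 and agree in 59 of the 61 bases shown. Tgtp1 and Tgtp2 agree in 47 of 61 bases, and Igtp and Tgtp2 in 42 of 61. A match to these letters is a description of the sequence and does not show that a factor binds there. The last 500 bases of the Tgtp1 and Tgtp2 transcripts, where this assay reads, share every stretch of 50 bases, so counts of these 2 genes cannot be assigned with confidence to either. The same limit touches Oas1a, which shares 56.1% of such stretches with Oas1g, and, less, Ifit3 (14.9%, with Ifit3b) and Ifitm3 (14.0%, with pseudogenes). Igtp and Irgm2 also overlap in annotated exons on the same strand, as do Ifi203 with Mndal, Irf9 with Rnf31 and Ifi47 with Olfr56.

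Of the 15 classes endothelial cells had the highest level of the interferon-gamma GTPases. Summed over the 9 genes, their level was 2053 ± 556 CPM in endothelial cells (SD, n = 7 libraries), 745 ± 202 CPM in mural cells (the pericytes and smooth muscle cells that wrap vessels, n = 7) and 654 ± 383 CPM in Schwann cells (n = 3). It was 553 ± 122 CPM in progenitors (the fibroblast-like precursors of fat cells, n = 7), 371 ± 117 CPM in macrophages (n = 7), 313 ± 76.0 CPM in T cells (n = 7) and 129 ± 71.7 CPM in B cells (n = 7). The endothelial sum lay between 1194 and 3046 CPM, above the highest library of each of the other 14 classes. Outside these classes the GTPase sum reached a like level, at 1078 to 1372 CPM over 4 libraries of adipocyte-like cells and at 1670 and 2102 CPM in the 2 libraries of 1 erythroid-like cluster, whose leading genes include the endothelial genes Gpihbp1 and Cldn5. Unnamed clusters reached it too, over 7 libraries each. The cluster led by Rgs5 and Plvap had 1164 to 2512 CPM, and that led by Rbp7 and Fabp4 had 925 to 3721 CPM. The Schwann class pools a cluster of 174 cells with a GTPase sum of 112 CPM and a type I sum of 47.1 CPM and a cluster of 106 cells with 1416 and 677 CPM, so its level is carried by the smaller cluster. Of the 9 GTPases 8 had their highest mean in endothelial cells, and the exception was Gbp2, at 282 ± 179 CPM (SD, n = 3) in neutrophils and 198 ± 35.4 CPM (SD, n = 7) in endothelial cells.

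Iigp1, an immunity-related GTPase that loads onto the vacuoles of intracellular parasites, reached 989 ± 380.2 CPM (SD, n = 7) in endothelial cells, from 340.2 to 1556 CPM. Its next levels were 376 ± 165 CPM in mural cells, 213 ± 72.9 CPM in progenitors and 159 ± 107 CPM in luminal mammary cells. In macrophages it was 61.5 ± 31.5 CPM, in T cells 28.7 ± 16.3 CPM and in plasma cells 9.41 ± 5.55 CPM (SD, n = 3). Endothelial and mural libraries overlapped for Iigp1, while macrophages and T cells lay below every endothelial library.

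Tgtp1, Tgtp2 and Gbp7 were the members whose top class did not overlap with the next. Tgtp2, another immunity-related GTPase, had 25.7 to 80.0 CPM in endothelial cells (mean 54.1 ± 17.9 CPM) against 3.61 to 24.4 CPM in mural cells. Tgtp1 had 19.2 to 49.8 CPM in endothelial cells against 3.21 to 12.2 CPM in T cells. Gbp7, a guanylate-binding protein, had 205 to 377 CPM against 71.3 to 174 CPM in the 3 Schwann cell libraries. Igtp, which shares its promoter element pair with Tgtp2, had its next level in T cells (89.2 ± 27.6 CPM, against 122 ± 46.1 CPM in endothelial cells), and there the libraries overlapped. Irgm1, which restrains the other Irg proteins, was at 244 ± 92.1 CPM in endothelial cells and 14.5 ± 5.23 CPM in luminal cells, its lowest class.

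**Figure D1:**
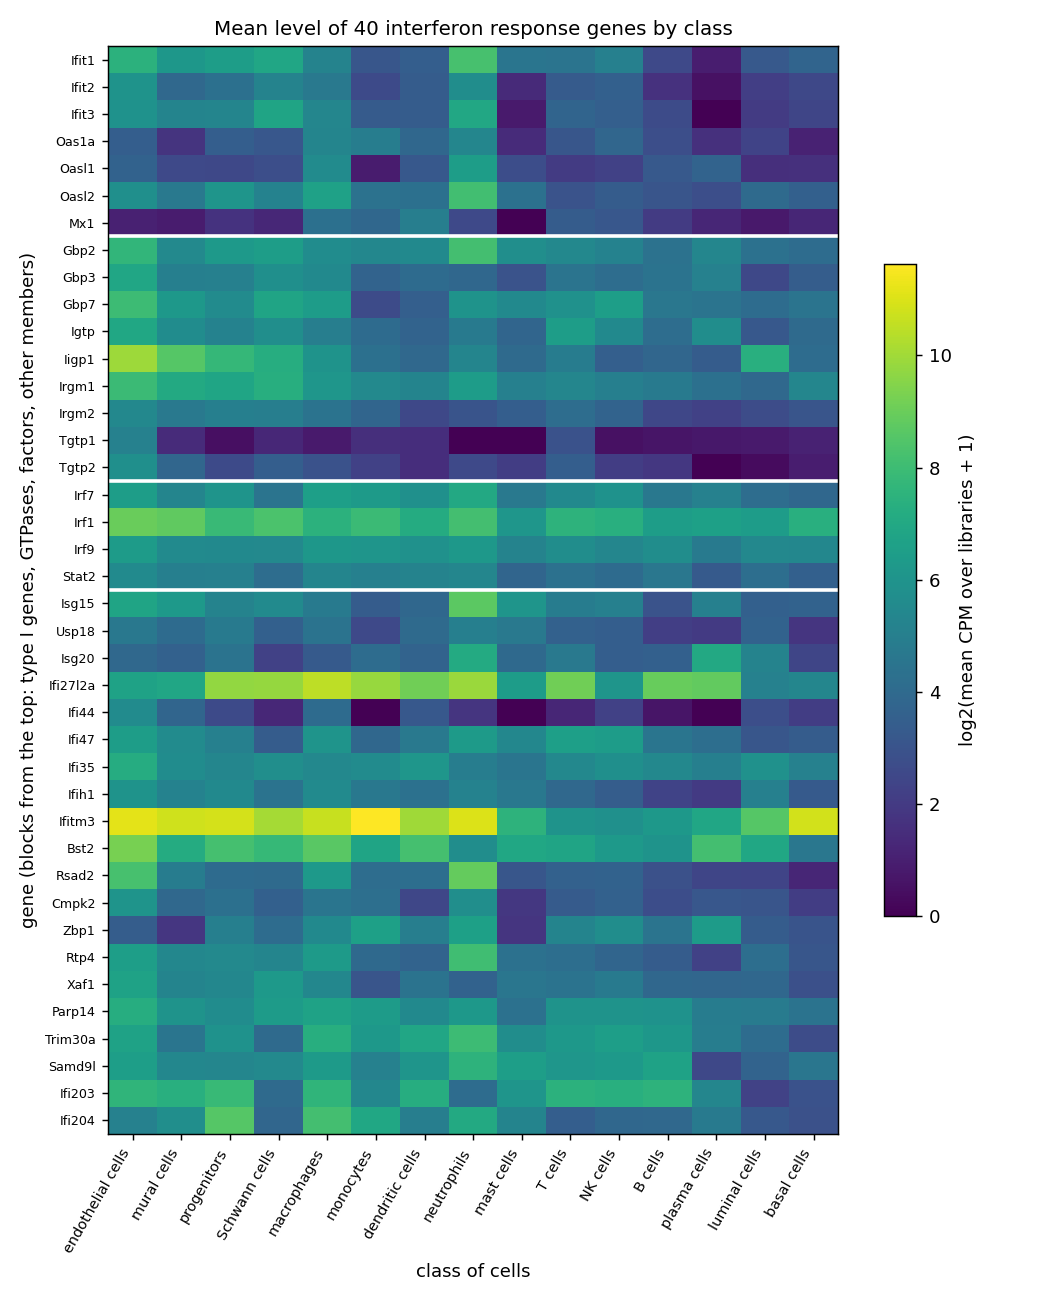
Mean level of each of the 40 genes (rows) in each class of cells (columns), as log2(mean CPM over libraries + 1), with brighter cells higher. White lines divide type I genes, GTPases, factors and other members: the endothelial column is bright over the GTPase block, the neutrophil column over the type I block, and the plasma cell and basal cell columns are dark over the type I block.

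The type I genes had another order of classes. Their sum was 892 ± 771 CPM in neutrophils (SD, n = 3 old libraries, since no young library had 20 neutrophils), and the neutrophil libraries stood far apart, at 153, 1691 and 831 CPM in old replicates 1 to 3. Endothelial cells had 377 ± 166 CPM, Schwann cells 316 ± 207 CPM, macrophages 305 ± 119 CPM and progenitors 227 ± 83.3 CPM. Mural cells had 155 ± 74.6 CPM, T cells 69.6 ± 38.1 CPM and B cells 37.0 ± 14.1 CPM. The type I sums of endothelial cells, macrophages and progenitors overlapped, so no order among them is read. Of the 7 type I genes 5 had their highest mean in neutrophils, Ifit2 in endothelial cells and Mx1 in dendritic cells (30.7 ± 20.5 CPM, SD, n = 7).

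The balance between both programs differed by class. The GTPase sum divided by the type I sum of the same library was 6.11 ± 2.42 in endothelial cells (SD, n = 7), 5.26 ± 1.81 in T cells, 2.69 ± 1.05 in progenitors, 1.25 ± 0.233 in macrophages and 0.846 ± 0.573 in neutrophils (n = 3). It ranged from 4.00 to 9.79 over endothelial libraries and from 0.918 to 1.59 over macrophage libraries, which did not overlap. These means pool both ages. In endothelial cells the ratio was 4.05, 4.98, 4.03 and 4.00 in young and 9.79, 7.60 and 8.36 in old libraries. Ages did not overlap either in B cells (1.52 to 3.27 in young, 4.73 to 8.29 in old). In luminal cells the order was reversed (9.30 to 21.6 in young, 1.27 to 4.08 in old). In T cells, progenitors and macrophages ages overlapped. The ratio also depends on how well each transcript is captured, so only its change between classes or ages is read, and neither was tested.

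**Figure D2:**
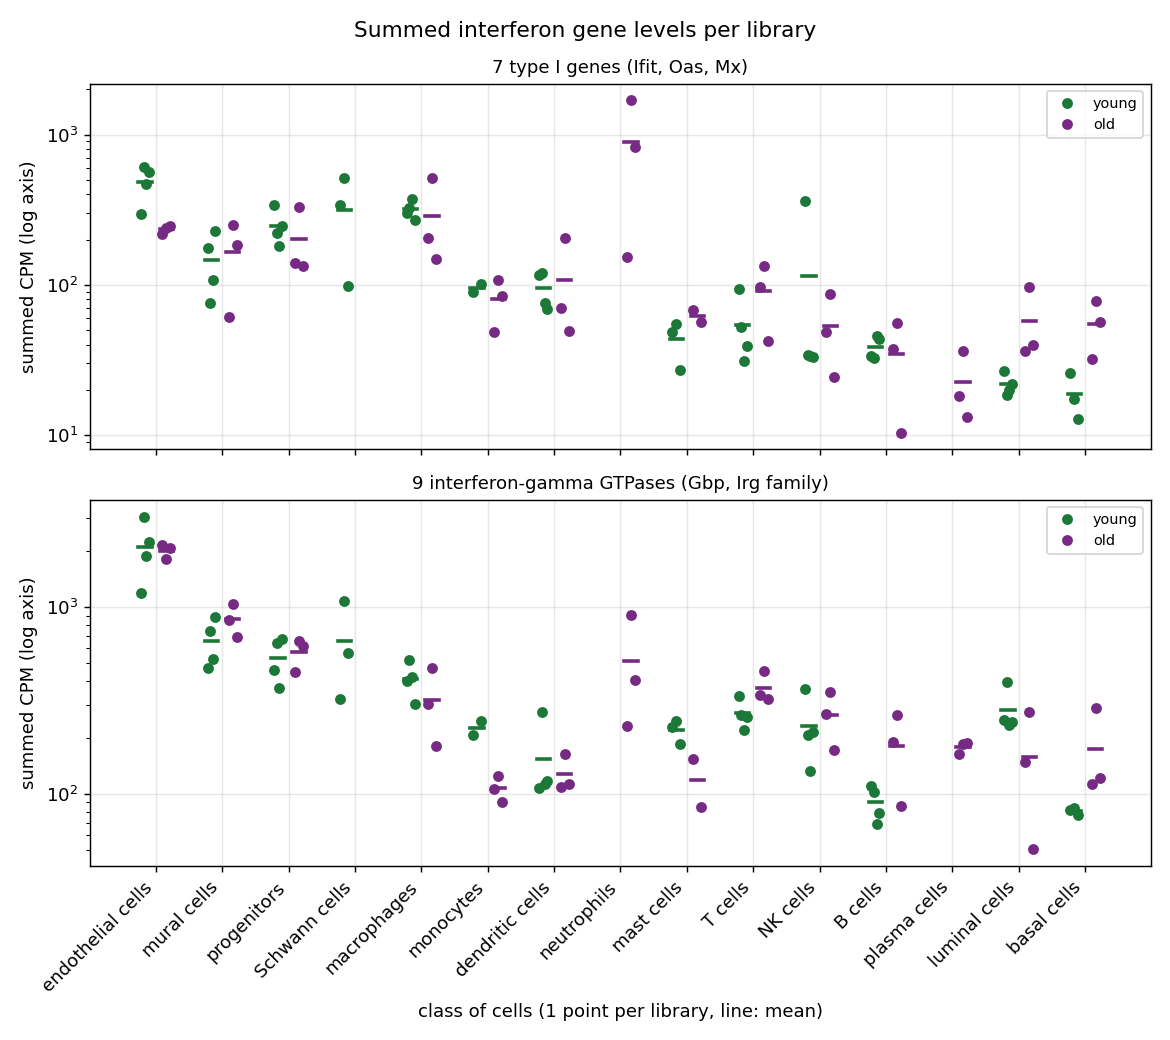
Summed CPM of the 7 type I genes (top) and the 9 GTPases (bottom) per class, on log axes, with 1 point per library, green for young and purple for old, and a line at each age's mean. Endothelial cells sit above the other classes plotted for the GTPases, between 1194 and 3046 CPM (adipocyte-like, erythroid-like, cycling and unnamed clusters are not plotted), and their young libraries lie above their old libraries for the type I genes.

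Members outside both sums had their highest levels in several classes. Ifi27l2a, a small mitochondrial interferon-induced protein, was highest in macrophages (1429 ± 447 CPM, SD, n = 7) and lowest in luminal cells (33.9 ± 34.1 CPM). Ifitm3, which blocks virus entry at endosomes, was highest in monocytes (3191 ± 1003 CPM, SD, n = 5), followed by endothelial cells (2296 ± 505 CPM), and was at 56.7 ± 29.6 CPM in NK cells. The DNA-binding relatives Ifi203 and Ifi204 were highest in progenitors, at 229 ± 53.4 CPM and 379 ± 74.2 CPM (n = 7), with macrophages next at 195 ± 47.2 CPM and 286 ± 93.6 CPM. Bst2, the tetherin that holds budding virus at the cell surface, had 609 ± 156 CPM in endothelial cells and 401 ± 208 CPM in macrophages. Each of these top classes overlapped with the next over libraries.

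Isg20, an exonuclease, was high in neutrophils (136 ± 63.2 CPM, SD, n = 3) and in plasma cells (129 ± 26.0 CPM, SD, n = 3), where the type I sum was 22.6 ± 12.3 CPM, the lowest of all classes. Ifi47, an Irg relative, was at 94.1 ± 29.1 CPM in T cells, 88.8 ± 18.8 CPM in endothelial cells and 84.9 ± 33.1 CPM in NK cells, levels that do not differ beyond their spread. Counted over all 40 members, the highest mean lay in endothelial cells for 19, in neutrophils for 15, in progenitors for 2, and in macrophages, monocytes, dendritic cells and T cells for 1 each. For each of the 15 neutrophil genes the libraries overlapped with those of the next class. The neutrophil means rest on old libraries alone, and some spread widely, such as Isg15 at 415 ± 662 CPM (SD, n = 3).

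Within progenitors the type I genes were uneven. The cluster led by Gdf10, Igfbp3 and F3, markers of a regulatory kind of precursor, had a type I sum of 204 to 1327 CPM over 7 libraries (median 390.2), against 41.0 to 101 CPM over 4 libraries (median 73.1) in the cluster led by Enpp2 and Inmt. Ifit1 alone ran from 98.8 to 1072 CPM in the Gdf10 cluster and from 0 to 22.7 CPM in the Enpp2 cluster. GTPase sums of these clusters overlapped, at 533 to 1431 CPM and 193 to 635 CPM. Age was read within single progenitor clusters as well. In the Gdf10 cluster 32 of 36 tested members were lower in old mice (type I median -1.05, GTPase median -0.37) and in the cluster led by Cilp and Myoc 34 of 35 (medians -1.17 and -1.24). None passed in either, where 0.243% of 9043 and 0.502% of 9354 genes did, and the Cilp cluster rests on 2 old libraries. By type I median these are the most negative of the 7 progenitor clusters that could be tested. In the remaining 5 clusters 13 of 35, 16 of 38, 17 of 38, 22 of 33 and 25 of 39 members were lower, the type I medians lay between -0.17 and 0.34, and none passed, where 0.223 to 1.33% of all genes did.

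Cells with many interferon UMIs were counted at a fixed cut. Counting noise alone can lift a cell over such a cut, so the share does not show whether the response sits in few cells. Cells were thinned to 2000 UMIs each, so that depth is equal, and called interferon-high with at least 5 UMIs over 12 genes (the 7 type I genes, Isg15, Rsad2, Cmpk2, Usp18 and Irf7). In endothelial cells this held for 11.2% (9.45 to 13.2%), 15.6% (12.5 to 19.2%), 13.9% (6.87 to 24.1%) and 17.5% (13.2 to 22.6%) of cells in the young libraries (exact 95% Clopper-Pearson intervals, counting error only). In the old libraries the endothelial shares were 4.63% (3.26 to 6.35%), 3.18% (2.02 to 4.73%) and 9.97% (7.08 to 13.5%). Every young library was above every old library, with means of 14.6 ± 2.68% (SD, n = 4) and 5.93 ± 3.58% (SD, n = 3), a difference of -8.64 percentage points.

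With no thinning the endothelial shares averaged 62.9% in young and 50.01% in old libraries. The class is a cut through a range: 200 of 1954 young and 98 of 1863 old endothelial cells lay at the cut or 1 UMI below it. In B cells, which had low levels of these genes, the share was 0 in every young library and 0 to 0.939% in old ones, where a count of 0 in the young libraries allows up to 1.72 to 4.23%.

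In macrophages the share was 4.60, 4.21, 3.97 and 2.62% in young and 3.89, 9.79 and 2.05% in old libraries. Old replicate 2 stands apart above the rest, and without it the difference between ages turned from 1.40 to -0.874 percentage points. In progenitors the shares ran from 2.18 to 4.62% in young and from 1.01 to 3.78% in old libraries, which overlap. In neutrophils they were 0, 30.0 and 25% in old replicates 1 to 3, of 62, 40 and 36 cells, where a count of 0 of 62 allows up to 4.84%. In T cells they stayed between 0 and 2.63%. These shares rest on a score over members and carry no p-value.

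Age was compared within each of 12 classes by summing UMIs per library and class and testing every gene of the class with edgeR's quasi-likelihood test, with Benjamini-Hochberg adjustment over all its genes and a threshold of 0.05. Values below are CPM after normalization by edgeR (normalized CPM), listed by replicate number, and a positive log2 fold change is higher in old mice. Where a list median is given, the median over all genes tested in that class lay between -0.05 and 0.03.

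**Figure D3:**
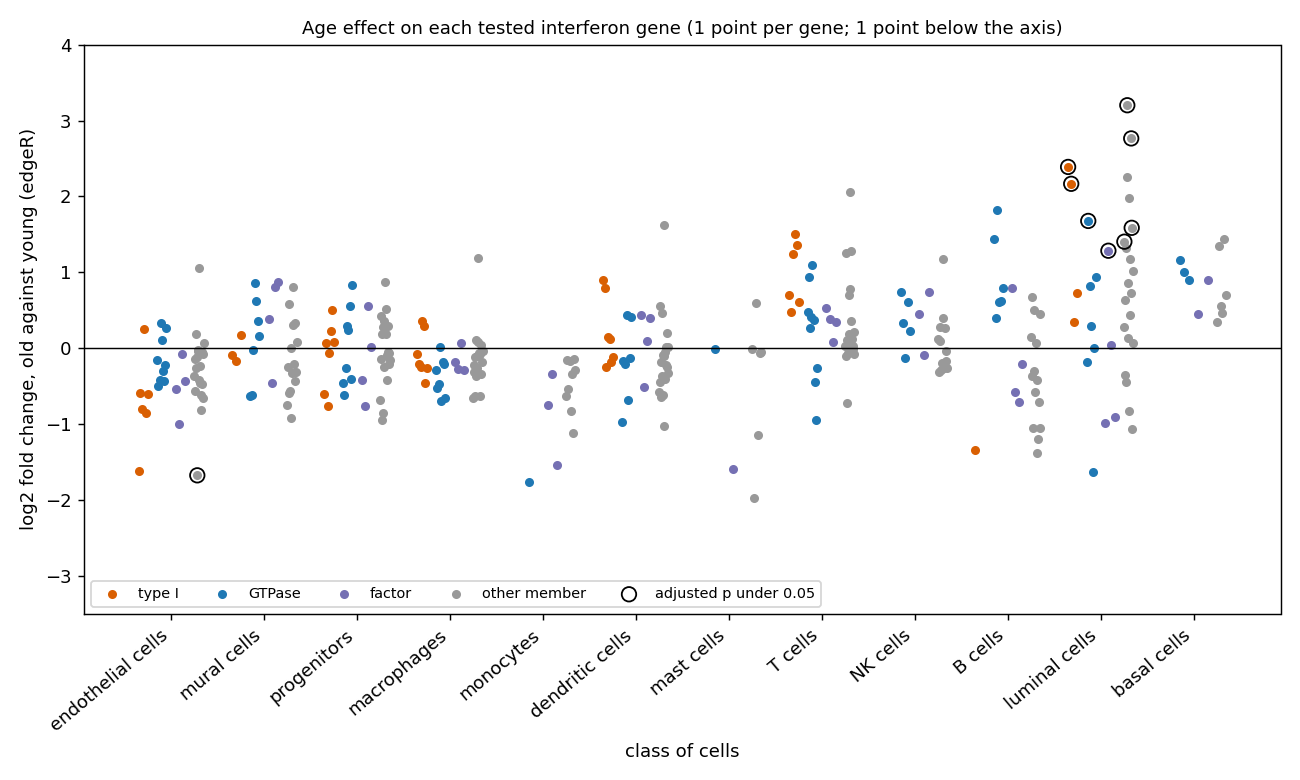
Log2 fold change of old against young libraries for each tested member in each class (1 point per gene, colour by group of genes), with a ring around those with adjusted p under 0.05. One point, Irgm1 in mast cells, lies below the axis: the rings sit on 1 endothelial gene below zero and on 8 luminal genes above zero.

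In endothelial cells 1 antiviral gene, Ifi44, fell with age, and most other members lay below zero without passing the test. Of 39 members tested, 1 passed and fell (Ifi44), where 0.257% of the 11666 genes tested fell, 0.266% rose and 0.523% changed in either direction. Below zero were 32 of the 39. The 6 tested type I genes had a median log2 fold change of -0.71 (5 lower), the 4 factors -0.48 (4 lower) and the 9 GTPases -0.22 (6 lower, 3 higher). Young and old libraries did not overlap for 8 of the 39 members, against 10.6% of all genes, and 10 had an unadjusted p under 0.05, against 10.9% of all genes.

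Ifi44 (chr3:151730922-151749960, minus strand, GRCm38, GENCODE M21), an antiviral gene of the type I response, measured 76.3, 92.8, 51.5 and 50.1 normalized CPM in young replicates 1 to 4 and 18.1, 29.1 and 16.7 in old replicates 1 to 3. All young values lay above all old values, and Ifi44 fell (log2 fold change -1.67, SE 0.28, adjusted p = 0.0494). The call is close to the threshold: leaving out young replicate 3 or 4 or any 1 of the old replicates lifted the adjusted p to between 0.0623 and 0.162, with a log2 fold change of -1.55 to -1.96. Without old replicate 3 the gene that passed was Rtp4. DESeq2, another count model, gave 4 calls in this class (Ifi44, Ifit1, Ifit3 and Irf7), all lower.

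Ifit1, which binds viral RNA caps, measured 82.0, 281, 255 and 389.5 normalized CPM in young and 83.4, 73.1 and 89.5 in old libraries. Young replicate 1 sat among the old values while the other young libraries were at least 255 (log2 fold change -1.62, SE 0.42, adjusted p = 0.127). Without young replicate 1 the adjusted p was 0.00849, and in the capillary cluster alone it was 0.0261 with a log2 fold change of -2.02. Young replicate 1 had 14 capillary cells and did not enter that test either.

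Ifit3, the partner of Ifit1, had 63.8, 94.0, 76.9 and 63.1 normalized CPM in young and 36.0, 40.1 and 52.3 in old libraries (log2 fold change -0.81, SE 0.21, adjusted p = 0.126). Irf7, the factor that amplifies type I interferon production, had 105, 89.0, 125 and 130.5 in young and 37.6, 56.3 and 75.1 in old libraries (log2 fold change -0.998, SE 0.25, adjusted p = 0.119). Rtp4, an interferon-induced zinc finger protein, had 105, 95.1, 117 and 124 and 45.2, 59.1 and 85.0 (log2 fold change -0.81, SE 0.22, adjusted p = 0.148). For these 3 genes young and old libraries did not overlap, yet none passed adjustment over all genes. Oasl1 and Oasl2, which tune RNA sensing, had log2 fold changes of -0.85, adjusted p = 0.21 and -0.61, adjusted p = 0.225, also with no overlap.

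Of the GTPases Gbp7 came closest to a difference, with 247, 379, 269.8 and 238 normalized CPM in young and 208, 215 and 214 in old endothelial libraries (log2 fold change -0.42, SE 0.20, adjusted p = 0.505). Iigp1 had 302, 1563, 815 and 1216 in young and 1256, 934 and 949 in old libraries (log2 fold change 0.10, SE 0.43, adjusted p = 0.985). Its old values fall inside the young range, of which young replicate 1 is the low end. Gbp3, Irgm2, Gbp2, Irgm1 and Igtp had log2 fold changes of -0.49, -0.43, -0.15, -0.30 and 0.33, and no GTPase in this class had an unadjusted p under 0.05. Tgtp2 was at 0.27. Whether the type I genes and the GTPases differ from each other in their response to age was not tested.

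Isg15, a ubiquitin-like protein that is among the earliest type I targets, lay above zero, unlike most members: 41.3, 78.2, 103 and 81.4 normalized CPM in young and 62.8, 51.4 and 358 in old endothelial libraries (log2 fold change 1.06, SE 0.60, adjusted p = 0.604). That value rests on old replicate 3, and the other old libraries lie inside the young range. Ifitm3 (-0.42, adjusted p = 0.615), Bst2 (-0.37, adjusted p = 0.707), Ifi27l2a (-0.27, adjusted p = 0.892) and Irf1 (-0.54, adjusted p = 0.79) overlapped between ages.

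**Figure D4:**
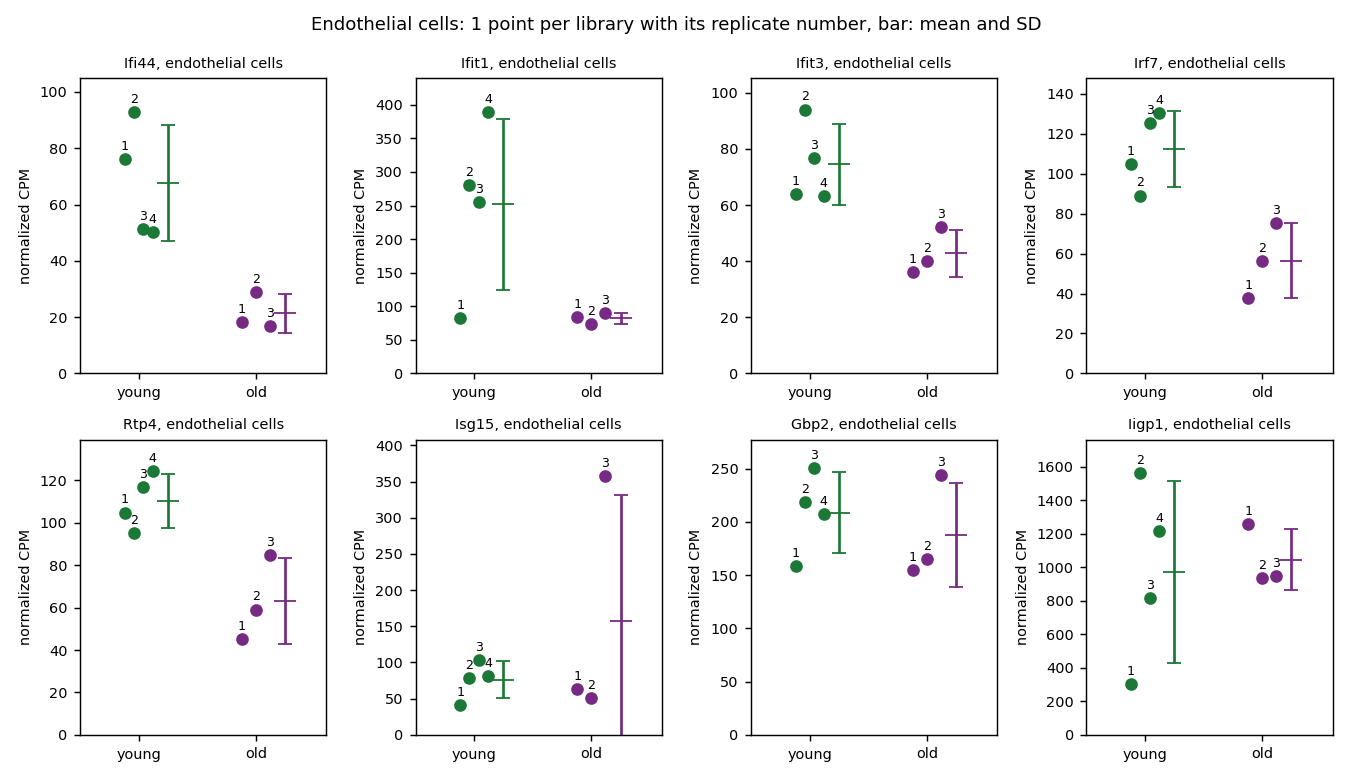
Normalized CPM of 8 members in endothelial cells, with 1 point per library labelled by its replicate number (young in green, old in purple) and a bar for the mean and SD of each age. The Ifi44 points are 50.1 to 92.8 in young and 16.7 to 29.1 in old libraries, Isg15 is high in old replicate 3 alone, and the Gbp2 and Iigp1 points of both ages overlap.

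The makeup of the endothelial class differed between ages. Its largest cluster, led by the capillary genes Gpihbp1 and Cd36, held 46.4 ± 31.6% of young (SD, n = 4) and 79.0 ± 9.01% of old endothelial cells (SD, n = 3). The shares of this cluster ran from 1.18 to 72.2% in young and from 68.7 to 84.8% in old libraries, which overlap. A Fabp5- and Aqp7-rich cluster held 62.4% of the endothelial cells of young replicate 1, the young library with the lowest Ifit1, Irgm1, Irf1 and Iigp1. Inside the capillary cluster, over 3 young and 3 old libraries, 35 of 39 tested members were lower in old mice, with a type I median of -0.96 and a GTPase median of -0.39, and 1 passed (Ifit1) against 0.132% of 10615 genes. Ifi44 there had a log2 fold change of -1.69 with an adjusted p of 0.0604. In the arterial-type cluster led by Sema3g and Stmn2, 30 of 37 tested members were lower, with medians of -0.74 and -0.07, and 0 passed, where 0.0275% of 7275 genes did.

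Markers of other cells also moved in this class. The 11 T cell markers summed to 5.39 to 12.2 CPM in young and 16.4 to 34.8 CPM in old endothelial libraries, with up to 6 of 11 markers at 0 in young and none in old libraries. The 9 B cell markers went from 2.16 to 8.08 CPM in young to 8.14 to 14.4 CPM in old libraries, with up to 5 and up to 2 of 9 at 0. The 11 progenitor markers went from 646 to 955 CPM down to 452 to 508 CPM, with at most 1 at 0. Their part in the result was not tested.

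The age effect differed between T cells and macrophages for 3 members: Rsad2, Iigp1 and Gbp3. In T cells 29 of 38 tested members were higher in old mice, with all 6 tested type I genes (median 0.97), all 4 factors (median 0.36) and 6 of 9 GTPases (median 0.37) above zero. None of the 38 passed, where 0.36% of 9709 genes did, and ages did not overlap for 5 (8.31% of all genes). An unadjusted p under 0.05 was reached by 9 members, against 9.41% of all genes, and DESeq2 called 0. In macrophages 31 of 39 tested members were lower (type I median -0.20, GTPase median -0.38). None passed, where 0.291% of 11700 genes did, and DESeq2 called 0. An unadjusted p under 0.05 was reached by 1 member (6.97% of all genes), and ages did not overlap for 2 (7.66% of all genes). The macrophage values depend on single old libraries: the type I median was -0.95 without old replicate 2 and 0.11 without old replicate 3, and the number of members below zero ran from 20 without old replicate 3 to 35 without old replicate 2.

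The makeup of the macrophage class differed between ages as well. The cluster led by Spp1 and Trem2 held 6.63 ± 1.14% of young (SD, n = 4) and 19.9 ± 7.99% of old macrophages (SD, n = 3), with no overlap. Its GTPase sum over all its cells was 307 CPM, against 380.2 and 467 CPM in the 2 largest clusters, led by Pf4 and by Fcna. Within the Spp1 cluster 30 of 37 tested members were lower in old mice (type I median -0.03, GTPase median -0.38). In the Pf4 cluster 31 of 39 were lower (medians -0.17 and -0.50) and in the Fcna cluster 26 of 39 (medians -0.08 and -0.17). No member passed in these clusters, where 0.93%, 0.194% and 0.247% of genes did.

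The test of the difference compared both age effects in 1 model with the library as a block. Of 40 members 35 had the more negative effect in macrophages (median difference -0.60, against -0.03 over all genes), and 3 passed, where 0.514% of 12245 genes did. By unadjusted p 16 of the 40 were under 0.05, against 13.8% of all genes.

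Rsad2 (viperin, which makes a chain-terminating nucleotide) measured 44.7, 114, 120.2 and 75.4 normalized CPM in young and 33.9, 121 and 16.9 in old macrophages. In T cells it measured 7.40, 7.28, 7.93 and 4.45 in young and 17.4, 27.5 and 3.00 in old libraries. Ages overlap in both classes, and old replicate 3 is the lowest in each, but the T cell value relative to the macrophage value of the same library was higher in each old library than in any young one (macrophage minus T cell effect -2.15, SE 0.39, adjusted p = 0.0324). In this ratio young replicate 1 came close to old replicate 3. The T cells of young replicate 1 held 245593 UMIs over all genes, so their Rsad2 value rests on few molecules.

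Iigp1 measured 48.2, 119.7, 73.8 and 49.9 normalized CPM in young and 46.5, 70.0 and 17.8 in old macrophages. In T cells it was 18.5, 20.9, 15.0 and 20.7 in young and 40.1, 50.2 and 30.0 in old libraries. The T cell libraries do not overlap between ages (log2 fold change 1.10, SE 0.25, adjusted p = 0.114), the macrophage libraries do (-0.70, adjusted p = 0.935), and the difference of the effects was -1.93, SE 0.37, adjusted p = 0.0423.

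Gbp3 had 58.0, 55.9, 49.9 and 42.2 normalized CPM in young and 30.4, 43.7 and 32.8 in old macrophages, with 1 young value below the highest old one. In T cells it had 33.3, 16.4, 8.34 and 9.88 in young and 23.6, 30.2 and 22.4 in old libraries, where young replicate 1, with only 39 T cells, is the highest. The difference of the effects was -1.51, SE 0.30, adjusted p = 0.0445. When young replicate 3 or 4 or old replicate 1 was left out, no member passed, and when young replicate 1 was left out, 5 did.

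**Figure D5:**
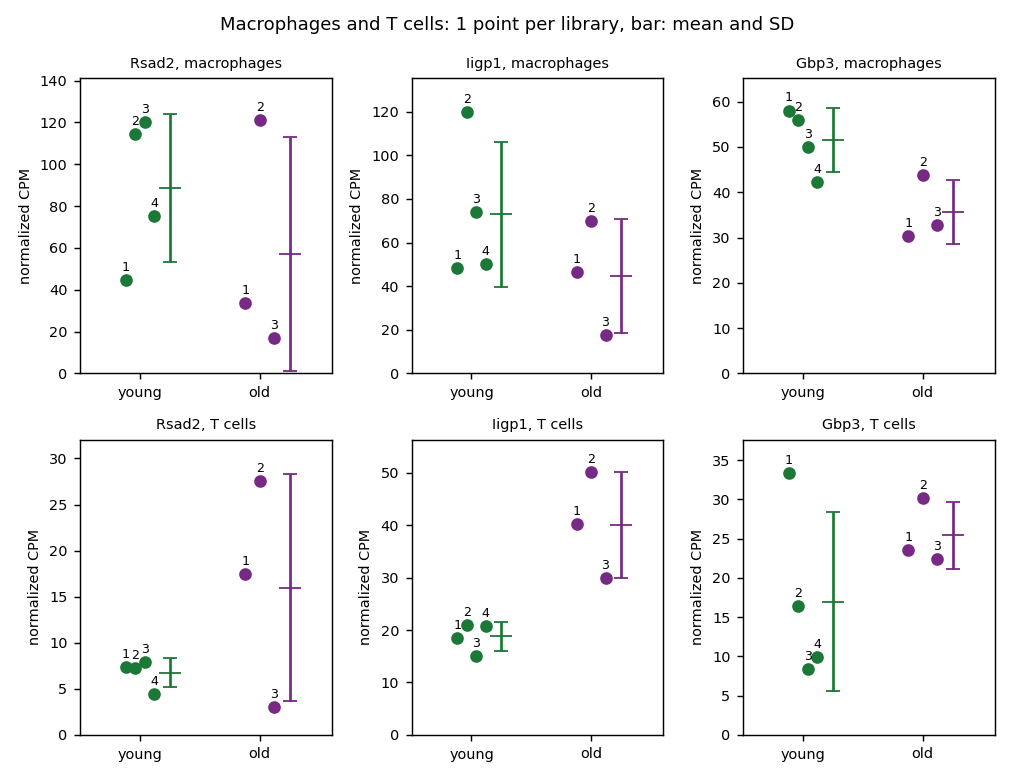
Normalized CPM of Rsad2, Iigp1 and Gbp3 in macrophages (top) and T cells (bottom), with 1 point per library labelled by its replicate number and a bar for the mean and SD of each age. The old T cell points of Iigp1, at 30.0 to 50.2, all lie above the young ones, at 15.0 to 20.9, and old replicate 3 is lowest of the old points for Rsad2 and Iigp1 in both classes.

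The mean makeup of the T cell class also differed between ages, with overlap between libraries. The naive-type cluster (led by Lef1 and Ccr7) held 56.6 ± 29.7% of young (SD, n = 4) and 19.1 ± 15.9% of old T cells (SD, n = 3). Its shares ran from 23.1 to 85.1% and from 3.77 to 35.5%. The cluster led by Ccl5 and Nkg7 with Cd8 genes held 14.9 ± 12.7% and 41.4 ± 13.4%, from 4.24 to 30.8% and from 30.2 to 56.3%. The 9 B cell markers summed to 0 to 7.94 CPM in young and 16.1 to 25.7 CPM in old T cells, with up to 9 of 9 and up to 1 at 0, and their part in these values was not tested. Within the naive-type cluster Iigp1 had a log2 fold change of 1.67 (adjusted p = 0.0548), and within the cluster led by Ctla4 and Tnfrsf4 it had 0.78 (adjusted p = 0.981). The type I medians of these clusters were 0.35 and -0.18, below the 0.97 of all T cells. The Ccl5 cluster had 12, 41, 15 and 14 cells in young replicates 1 to 4, too few for a test between ages. Over all its cells its type I sum was 116 CPM, against 32.8 CPM in the naive-type and 75.9 CPM in the Ctla4 cluster. The part of the makeup in the T cell values was not tested. In the naive-type cluster 11 of 31 tested members were lower and in the Ctla4 cluster 19 of 29, and no member passed in either, where 0.145% of 7612 and 0.0823% of 7286 genes did. Without old replicate 3 Iigp1 and Rsad2 passed in T cells as a whole.

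Other T cell members differed more in size than in their test. Oas1a, which makes the signal that switches on RNase L, had 3.70, 9.10, 4.17 and 1.98 normalized CPM in young and 8.42, 10.9 and 15.8 in old T cells (log2 fold change 1.36, SE 0.46, adjusted p = 0.341). Ifit3 had 18.5, 8.19, 3.75 and 5.43 and 15.9, 22.5 and 7.60 (log2 fold change 1.24, SE 0.49, adjusted p = 0.443). Ages overlap for both. Tgtp1 ran the other way, from 11.1, 6.37, 8.34 and 8.89 to 4.96, 2.73 and 5.20 (log2 fold change -0.95, SE 0.39, adjusted p = 0.468), with no overlap, although its reads cannot be told from those of Tgtp2. Irf1 had 178, 179, 147 and 118 in young and 234, 186 and 247 in old T cells, also with no overlap (log2 fold change 0.53, SE 0.24, adjusted p = 0.517).

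Other macrophage members did not pass either. Ifi27l2a had 1562, 1432, 1940.1 and 1807 normalized CPM in young and 591, 1271 and 1419 in old macrophages, with no overlap (log2 fold change -0.62, SE 0.32, adjusted p = 0.833), and its log2 fold change stayed between -0.86 and -0.33 whichever library was left out. Bst2 had 775, 359.6, 381 and 356 and 213, 339 and 339.6, with no overlap and with young replicate 1 set apart above the rest (log2 fold change -0.65, SE 0.34, adjusted p = 0.848). Tgtp2 and Gbp7 had log2 fold changes of -0.65 and -0.46 with overlap (adjusted p = 0.909 and 0.898), and both stayed below zero whichever library was left out. Oasl1, Oas1a and Mx1 had log2 fold changes of -0.45, 0.30 and 0.36, with overlap. Old replicate 2 was the highest library of all 7 for Oasl2 (149 normalized CPM) and Ifit1 (65.6), while old replicate 3 was the lowest for both.

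Against progenitors and against endothelial cells no member's age effect in macrophages passed a test of the difference (0 of 40 in each, where 0.562% of 14061 and 0.465% of 12901 genes did, and 3 and 2 members had an unadjusted p under 0.05, against 13.1% and 10.9% of all genes). The lowest p-values were those of Tgtp2 (-1.52, SE 0.53, adjusted p = 0.261) and Irf9 (-0.57, SE 0.20, adjusted p = 0.266) against progenitors, and of Ifitm3 (0.48, SE 0.19, adjusted p = 0.365) and Ifi44 (1.08, SE 0.49, adjusted p = 0.456) against endothelial cells.

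In progenitors, the class with the most cells, no member passed the test between ages. The makeup of the class differed between ages: the cluster led by Smoc2 and Cxcl14 held 0.327 ± 0.134% of young (SD, n = 4) and 34.8 ± 3.42% of old progenitors (SD, n = 3), that led by Penk and Mgp 1.37 ± 0.939% and 21.6 ± 9.56%, and that led by Scg3 and H19 23.9 ± 12.2% and 1.97 ± 0.955%, each with no overlap. The GTPase sums of these 3 clusters, over all their cells, were 637, 612 and 698 CPM, and the type I sums 165, 127 and 194 CPM. None of the 39 tested members passed, where 1.82% of 13971 genes did. An unadjusted p under 0.05 was reached by 3 members (Tgtp2, Irf9 and Gbp3) against 17.2% of all genes, ages did not overlap for 3 (17.4% of all genes), and DESeq2 called 0. The type I median was 0.07 and the GTPase median -0.01. Tgtp2 had 4.05, 3.70, 2.43 and 4.99 normalized CPM in young and 5.43, 6.48 and 8.49 in old progenitors (log2 fold change 0.83, SE 0.28, adjusted p = 0.183), and Irf9, the DNA-binding part of the type I complex, had 45.4, 40.0, 29.5 and 34.7 and 50.7, 66.4 and 47.2 (log2 fold change 0.55, SE 0.19, adjusted p = 0.187). Both were higher in every old library. Gbp2 was lower in every old library (-0.46, adjusted p = 0.318), with young replicate 4 set apart above the rest. Ifit1 had 91.6, 95.8, 76.4 and 143 in young and 42.9, 107 and 50.3 in old progenitors, which overlap (log2 fold change -0.61, SE 0.34, adjusted p = 0.414).

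For Irf7, Bst2 and Ifi27l2a 1 young library, replicate 1, set the upper end in progenitors. Ifit3 also had its highest young value there, at 82.9 normalized CPM against 30.6 to 34.1 in the other young libraries. Irf7 measured 149.8, 57.7, 45.8 and 45.9 normalized CPM in young progenitors, Bst2 676, 282, 205 and 185 and Ifi27l2a 2194, 847, 652 and 480.4. The old libraries had 27.0, 65.3 and 40.1, 171, 261 and 198 and 442, 815 and 365. For Irf7, Bst2 and Ifi27l2a the old values overlap with those of young replicates 2 to 4. Young replicate 1 also differed in its makeup of progenitors. The cluster led by Pi16 and Cxcl13, with Ifi27l2a among its leading genes, held 34.7%, against 3.66 to 4.64% in young replicates 2 to 4. The Gdf10 cluster held 20.9%, against 4.03 to 8.38%. The cluster led by Crabp1 and Mme held 22.9%, against 0.222 to 0.304%. The Enpp2 cluster held 0.09%, against 5.40 to 34.7%. The part of this makeup was not tested. Summed over 10 immediate early genes, which dissociation can induce, progenitors had 6835 to 21754 CPM in young and 21908 to 34277 CPM in old libraries, and young replicate 1 also had the lowest Irf1, at 57.6 normalized CPM. Their part in these values was not tested.

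In B cells no member passed the test between ages. All 6 tested GTPases had a log2 fold change above zero (median 0.71), with overlap between ages for each, the 1 tested type I gene (Oasl1) was below zero, and 13 of 25 tested members were below zero in all. None passed, where 0.983% of 7629 genes did, 10 members had an unadjusted p under 0.05 against 9.15% of all genes, ages did not overlap for 4 (8.61% of all genes), and DESeq2 called 1 (Samd9l). Gbp7 had 15.8, 9.52, 9.63 and 8.30 normalized CPM in young and 38.2, 66.6 and 10.7 in old B cells, where old replicate 3 stayed near the young values (log2 fold change 1.82, SE 0.57, adjusted p = 0.216). Samd9l, a growth-restraining antiviral protein, had 165, 150.0, 133 and 105 in young and 70.1, 84.6 and 29.0 in old B cells, with no overlap (log2 fold change -1.20, SE 0.33, adjusted p = 0.131). Ifi27l2a had a negative value too, with overlap (log2 fold change -1.05, SE 0.32, adjusted p = 0.196). Without old replicate 3 Gbp2 and Gbp7 passed, and without old replicate 2 Ifi27l2a did.

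The makeup of the B cell class changed too. A cluster led by Mzb1 next to pan-B genes held 2.61 ± 0.943% of young (SD, n = 4) and 39.2 ± 21.2% of old B cells (SD, n = 3). The 7 plasma cell markers summed to 261 to 361 CPM in young and 721 to 908 CPM in old B cells. In the remaining cluster alone 11 of 14 tested members were lower, 0 passed (0% of 4891 genes did), the GTPase median was 0.94 and Samd9l had a log2 fold change of -1.10 (adjusted p = 0.616).

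Luminal mammary cells, the milk-duct lining cells that come with inguinal fat, were the class with most calls. Of 35 tested members 8 rose and 0 fell, where 4.78% of 11497 genes rose and 2.79% fell (7.57% in all). Young and old libraries did not overlap for 12 of the 35 members, against 22% of all genes tested in luminal cells, and 16 had an unadjusted p under 0.05, against 24.6%. The 8 were Ifi47, Samd9l, Irf7, Trim30a, Gbp3, Ifit1, Ifit2 and Cmpk2. All 4 tested type I genes were higher (median 1.45), against 4 of 7 GTPases (median 0.30). Ifi47, an Irg relative, is counted among the other members and so enters neither median.

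Ifi47 (chr11:49076587-49096974, plus strand, GRCm38, GENCODE M21) measured 2.23, 2.14, 1.18 and 1.14 normalized CPM in young and 14.6, 15.9 and 16.5 in old luminal cells (log2 fold change 3.20, SE 0.33, adjusted p = 0.00372). The old libraries sit close together and far above the young ones, and Ifi47 passed under each of the 14 alternatives run on this class. Irf7 rose from 12.9, 9.25, 10.9 and 8.53 to 21.8, 25.7 and 29.5 (log2 fold change 1.29, SE 0.22, adjusted p = 0.0153). Ifit1 rose from 3.80, 3.08, 1.35 and 3.09 to 5.50, 29.6 and 12.5 (log2 fold change 2.39, SE 0.55, adjusted p = 0.0345), with old replicate 2 the highest.

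Samd9l, Trim30a, Gbp3, Ifit2 and Cmpk2, a nucleotide kinase gene next to Rsad2, had log2 fold changes of 2.76, 1.59, 1.68, 2.17 and 1.40 (adjusted p = 0.0113, 0.0249, 0.0254, 0.0462 and 0.0493), each with no overlap between ages. Only Ifi47 passed without old replicate 1 or with a stricter cell filter. In all, 3 rose without young replicate 4, 4 without young replicate 2 or 3 and 6 without old replicate 3. Without young replicate 1, 9 rose and 1 fell, and without old replicate 2, 5 rose and 3 fell. Over all genes between 42 (without old replicate 1) and 1488 (without old replicate 2) were called. Iigp1 was the GTPase at the other end: 157, 344, 186 and 191 normalized CPM in young and 57.8, 146 and 11.6 in old luminal cells, with no overlap (log2 fold change -1.62, SE 0.66, adjusted p = 0.164), and among the alternatives run it passed only without old replicate 2.

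These luminal levels were low and the class itself changed. For the 8 genes that rose, the old luminal mean was 5.21 to 18.7 times below the mean of the highest other class, where Ifit1, for instance, had 16.3 CPM in old luminal cells and 304 CPM in neutrophils. The hormone-sensing cluster (led by Prlr) held 75.0 ± 9.47% of young (SD, n = 4) and 9.42 ± 9.62% of old luminal cells (SD, n = 3), and the secretory cluster (led by Ltf and casein genes) held 14.8 ± 7.99% and 78.8 ± 22.3%. Over all their cells, of both ages, the hormone-sensing and secretory clusters had type I sums of 21.6 and 52.0 CPM. Their GTPase sums were 275 and 102 CPM. The part of this shift in the luminal values was not tested. The median luminal cell had 26809 to 48696 UMIs in young and 11628 to 18237.5 UMIs in old libraries. Neither cluster had 20 cells in 2 libraries of each age, so the rise could not be tested within a cluster. The 8 mast cell markers summed to 39.8 to 155 CPM in young and 228 to 376 CPM in old luminal cells, with up to 4 of 8 at 0 in either age. The 6 cycling markers summed to 51.1 to 211 CPM and 9.83 to 38.9 CPM, and the 6 plasmacytoid dendritic cell markers to 1112 to 4446 CPM and 479 to 515 CPM, with up to 4 and up to 5 of 6 at 0. Their part was not tested.

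In the other classes no member passed. In dendritic cells 0 of 38 passed (0.0216% of 9239 genes did), 3 had an unadjusted p under 0.05 (2.74% of all genes), and the lowest was that of Isg15 (log2 fold change 1.62, SE 0.61, adjusted p = 1). In mural cells 0 of 29 passed (0% of 6791 genes), 5 were under 0.05 unadjusted (8.16% of all genes), led by Irf9 (log2 fold change 0.81, SE 0.28, adjusted p = 0.444). In NK cells 0 of 21 passed (0% of 6328 genes), and none was under 0.05 unadjusted (4.11% of all genes).

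In monocytes all 13 tested members were lower in old mice, 0 passed (0% of 3767 genes) and 4 were under 0.05 unadjusted (3.85% of all genes), led by Irf9 (log2 fold change -1.54, SE 0.47, adjusted p = 0.999), over 2 young and 3 old libraries. Basal mammary cells showed the reverse, with all 11 tested members higher, 0 passed (0.425% of 7531 genes), 5 under 0.05 unadjusted (10.4% of all genes), and Irf9 again the lowest (log2 fold change 0.91, SE 0.34, adjusted p = 0.367). In mast cells 0 of 9 passed (0% of 3092 genes) and 2 were under 0.05 unadjusted (7.7% of all genes). There Irgm1 had 17, 16 and 5 UMIs in the 3 young libraries and 0 in both old ones (adjusted p = 0.591). DESeq2 called 0 members in each of these 6 classes.

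Some patterns followed a library across classes rather than an age. Isg15 was highest in old replicate 3 in 13 of the 14 classes in which that library had enough cells. It measured 347 CPM in endothelial cells against 46.5 to 101 CPM in the other 6 libraries, 105 CPM in T cells against 6.20 to 21.7 CPM, and 71.7 CPM in macrophages against 7.97 to 28.1 CPM. The exception was basal cells. Ifit1, by contrast, was highest in old replicate 3 only in basal cells, so these type I targets, which both have ISRE letters in their promoters, parted in that library. Over 360 pairs of a member and a class with all 7 libraries, old replicate 2 was the highest library in 149 and young replicate 1 in 81.

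NK cells of young replicate 1 had a type I sum of 360 CPM from 69 UMIs in 30 cells, against 24.4 to 87.5 CPM in the other 6 libraries. That sum therefore rests on few molecules.

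The ligands, receptors and kinases upstream of the members were read from the same fits, over 84 further pathway genes. Ifng, which encodes interferon gamma, was confined neither to an age nor to 1 class of lymphocyte: in T cells it had 73.3, 243, 10.1 and 19.5 CPM in young and 114, 191 and 169.6 CPM in old libraries. In NK cells it ran from 31.2 to 363 CPM. The T cell values of young replicate 2 exceed all old ones, so ages overlap. Ifnb1, which encodes interferon beta, reached 8.56 CPM in macrophages of young replicate 2 (66 UMIs) and 1.03 CPM or less in macrophages of every other library.

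Of the 64 pathway genes tested in endothelial cells 1 passed: Gm4951, a relative of the Irg GTPases, rose, with 23.2 ± 8.48 CPM (SD, n = 4) in young and 68.9 ± 18.5 CPM (SD, n = 3) in old libraries (log2 fold change 1.55, SE 0.28, adjusted p = 0.0494). Ifngr1, the ligand-binding chain of the interferon gamma receptor, had 248 ± 23.7 CPM (SD, n = 4) in young and 403 ± 16.4 CPM (SD, n = 3) in old libraries, with no overlap (log2 fold change 0.70, SE 0.17, adjusted p = 0.108). Oas2, a relative of the type I Oas genes, was also higher with no overlap (log2 fold change 1.03, SE 0.21, adjusted p = 0.0662), against the direction of Oasl1 and Oasl2. Ifnar1, a chain of the type I receptor, had a log2 fold change of -0.35, adjusted p = 0.442. Cxcl9 and Cxcl10, chemokines that interferon gamma induces, had log2 fold changes of 0.02 and -1.11 (adjusted p = 0.997 and 0.672).

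In luminal cells 5 of 53 tested pathway genes rose and 0 fell, with these log2 fold changes: Epsti1 (3.15, adjusted p = 0.0164), Ifngr1 (1.00, adjusted p = 0.0182), Tmem173, which encodes the DNA sensing adaptor STING (0.74, adjusted p = 0.0468), Phf11d (1.17, adjusted p = 0.0493) and Ddx60 (1.66, adjusted p = 0.0499). In the other 10 classes none of the pathway genes tested passed, 68 in progenitors, 68 in macrophages, 60 in T cells and 47 in B cells among them. Ifngr1 in progenitors had 175 ± 17.1 CPM (SD, n = 4) in young and 259 ± 39.2 CPM (SD, n = 3) in old libraries, again with every old library higher (log2 fold change 0.57, SE 0.17, adjusted p = 0.133). In macrophages Ifngr1 had a log2 fold change of -0.03.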

How the data were processed

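The 10x 3′ version 3 single-cell RNA-seq libraries were 4 from young and 3 from old mice. The authors deposited raw UMI counts per gene and cell, made with Cell Ranger 4.0.0 on mm10 per the submitters' processing notes. The gene annotation behind these counts is not given in the sources used here. The members and gene lists were chosen with earlier results of these data known.

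Of 45514 barcodes, 39566 passed a minimum of 500 UMIs and 300 genes and a ceiling of 15% on mitochondrial UMIs. Scanpy 1.11.5 gave 61 clusters from 2000 variable genes and 40 principal components (Leiden resolution 2), 49 of them named by markers. Doublets marked by Scrublet were removed, which left 37293 cells. The 12 unnamed clusters hold 3471 of these (a mean of 8.61% in young and 9.96% in old libraries) and enter no class. Of the 12 classes tested, each has 20 cells in at least 2 libraries per age.

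Counts were summed per library and class and tested with edgeR 4.0.16 (filterByExpr, TMM, glmQLFTest, 2-sided). Age is the term tested, and the library is a block where 2 classes were compared. Normalized CPM uses TMM library sizes, and plain CPM the total of the class. The steps were tested on simulated data. Genes are named by a rule: every member past 0.05, the 3 lowest p-values per group of genes and a set list, or the lowest p alone in classes with no call. The alternatives were DESeq2 1.42.0, RLE size factors, no expression filter, a stricter cell filter, doublets kept, thinned counts, a replicate block and each library left out. Single clusters were tested after seeing the data. In class sums, a shift in the makeup of a class and a change within its cells cannot be told apart. Intervals cover counting error only. Gene positions were matched to GENCODE M21.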

Additional observations from a re-analysis of the deposited data

Results flagged for a closer look

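In 10 of 115 tested groups of 4 young libraries, 1 library stood apart from the other 3 by the gap to its nearest neighbour (Dixon's ratio), and chance alone gives about 1 in 20. In normalized CPM, progenitors of young replicate 1 had 82.9 for Ifit3, against 30.6 to 34.1 in the others, and 149.8 for Irf7, against 45.8 to 57.7. Progenitors of young replicate 4 had 119.5 for Gbp2, against 72.1 to 74.1. Macrophages of young replicate 1 had 774.5 for Bst2, against 356 to 381, and those of young replicate 3 had 43.0 for Oas1a, against 31.8 to 33.4.

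T cells of young replicate 1, a library with 39 such cells, had 18.5 for Mx1, against 2.09 to 4.55, and 0 for Oasl2, against 6.37 to 6.68. B cells of young replicate 2 had 38.1 for Irgm1, against 12.7 to 16.4. Luminal cells of young replicate 2 had 29.9 for Ifi27l2a, against 15.8 to 17.0, and their summed GTPase level was 398.9 CPM, against 234 to 250 CPM.

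The age effect in macrophages minus that in T cells was -2.15 for Rsad2, -1.93 for Iigp1 and -1.51 for Gbp3 on the log2 scale, and each passed the test of the difference.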

How the results depend on the processing

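No result reversed among those with a call. Of the values of counts, medians and shares under the planned settings, 219 stayed close to the value reported and 36 moved. Under settings not planned 25 stayed close and 3 moved. For single genes 1348 kept their side of the threshold, 49 lost it and 22 gained it under the planned settings. Under those not planned 247 kept it, 2 lost it and 1 gained it. Leaving out 1 library gave 0 to 2 calls in endothelial cells, 0 to 2 in T cells, 0 to 2 in B cells, 1 to 10 in the 7 other classes and 0 to 5 for macrophages against T cells. Without an expression filter these counts were 3, 2, 4, 13 and 5. DESeq2 gave 4 in endothelial cells and 1 in B cells. In the 7 other classes doublets kept gave 5 and the stricter cell filter 1. The type I median in macrophages ran from -0.95 (without old replicate 2) to 0.11. In B cells the value reported rests on Oasl1 alone, while other settings tested other or more type I genes, so these medians are not the same quantity: they ran from -0.88 to -0.43 without 1 young library (replicates 1, 2 and 4, where 1 could be had), and the median was -0.38 with no filter.

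The old minus young share of interferon-high cells, with a minimum of 3 UMIs, was -2.11 percentage points in progenitors, -1.01 in macrophages, -14.1 in endothelial cells and 1.29 in T cells. With a minimum of 8 UMIs it was -2.03 in endothelial cells. Leaving out 1 library moved it from -0.874 to 2.99 in macrophages and from -0.0846 to 0.793 in T cells.

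A replicate block is not supported by the labels, and same-numbered libraries deviated with correlations of -0.124 to 0.188 in endothelial cells. With the block, calls were 0 in endothelial cells, 1 in B cells (Samd9l) and 3 in the 7 other classes. The stricter cell filter could not be fitted in B cells, monocytes, basal cells and mast cells, nor the block in mast cells. The cause of these shifts was not tested. Depth limits the rare classes: T cells of young replicate 1 rest on 39 cells.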
